A study of Mus musculus with 6 samples.

Results

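The 8 genes described here encode the receptor chains for interleukin (IL) 2, 4, 7, 9, 15 and 21: Il2ra, Il2rb, Il2rg, Il7r, Il4ra, Il21r, Il15ra and Il9r. They were chosen by gene symbol, with earlier results of these data known. All 8 were found among the 55840 genes of the deposited table. The 6 RNA libraries came from mouse regulatory T cells (Tregs) of 2 genotypes with 3 libraries each: wild type (WT), and a genotype labelled Exon2KO. By its title the series concerns Foxp3∆2 in spleen and lymph nodes. Foxp3 is the transcription factor that defines Tregs, and the label refers to its exon 2. The sources used here give no strain, sex, age, treatment or sorting scheme, and nothing on whether animals were pooled. The question addressed was which receptor transcripts differed between Tregs with and without that exon.

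Cytokines of this family signal through receptors that share the common gamma chain, encoded by Il2rg. The gamma chain carries Jak3, its partner chains carry Jak1, and the kinases activate STAT factors, mainly STAT5 for IL-2, IL-7, IL-9 and IL-15, STAT6 for IL-4 and STAT3 for IL-21. The IL-2 receptor adds an alpha chain (Il2ra, CD25), which raises affinity for IL-2, to the beta chain (Il2rb, CD122) and the gamma chain. IL-15 uses the same beta and gamma chains with its own alpha chain, Il15ra. Tregs carry much CD25, make little IL-2 themselves and depend on IL-2 from other cells, whereas the IL-7 receptor is typically low on Tregs and high on resting conventional T cells.

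Promoter windows of 7 of the 8 genes were found in the RefSeq table (build GRCm38.p6). Each covers 250 bases before and 50 after a RefSeq start of transcription. That start can lie inside the gene as positioned in the deposited data. The Il7r window lies wholly within its gene (end 9530176, minus strand). The letters marked in the Il4ra window lie past the start of that gene at 125552120. The 4 windows below include those of 2 genes that were lower in Exon2KO (Il2ra, Il9r). Il2rb, which was lower as well, is the gene without a window. Il4ra is shown as the gene that was higher when libraries were paired. Il7r is shown as the gene that varied most between libraries of the same genotype. Capitals mark matches on either strand to the letters TTCNNNGAA (a STAT motif), TGTTTAC (forkhead), TGTGGT (RUNX), CCGGAAGT (ETS), TGANTCA (AP-1) or GCATGNAAAT. The last is a repeat that was derived from the Il4ra window itself and searched afterwards.
Il2ra, chr2:11642542-11642841, plus strand: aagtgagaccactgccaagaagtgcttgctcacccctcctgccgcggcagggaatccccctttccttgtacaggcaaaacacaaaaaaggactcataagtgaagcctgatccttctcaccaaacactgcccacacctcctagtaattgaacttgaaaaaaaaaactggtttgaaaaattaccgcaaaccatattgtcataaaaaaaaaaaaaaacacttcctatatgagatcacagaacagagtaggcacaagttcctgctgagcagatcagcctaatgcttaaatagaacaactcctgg
Il9r, chr11:32200230-32200529, minus strand: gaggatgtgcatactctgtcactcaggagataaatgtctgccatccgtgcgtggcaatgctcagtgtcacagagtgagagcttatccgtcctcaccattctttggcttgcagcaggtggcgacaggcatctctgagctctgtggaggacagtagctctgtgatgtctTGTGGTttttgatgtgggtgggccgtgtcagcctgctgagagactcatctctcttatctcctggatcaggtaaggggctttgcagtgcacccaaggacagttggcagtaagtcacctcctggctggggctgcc
Il4ra, chr7:125552021-125552320, plus strand: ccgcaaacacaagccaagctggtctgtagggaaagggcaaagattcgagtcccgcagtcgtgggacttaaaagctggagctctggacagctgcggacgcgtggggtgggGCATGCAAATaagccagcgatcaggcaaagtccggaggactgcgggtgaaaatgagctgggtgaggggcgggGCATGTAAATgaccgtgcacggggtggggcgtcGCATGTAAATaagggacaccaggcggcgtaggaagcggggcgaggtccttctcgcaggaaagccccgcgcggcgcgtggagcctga
Il7r, chr15:9529827-9530126, minus strand: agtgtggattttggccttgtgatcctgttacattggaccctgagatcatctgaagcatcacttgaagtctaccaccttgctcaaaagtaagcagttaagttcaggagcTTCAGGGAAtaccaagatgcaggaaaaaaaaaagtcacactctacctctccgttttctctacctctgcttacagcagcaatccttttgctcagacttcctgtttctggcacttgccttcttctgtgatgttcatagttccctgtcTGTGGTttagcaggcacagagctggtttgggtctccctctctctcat

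The Il4ra window differed in base composition from the other 3 shown. It had 25 CpG dinucleotides and a GC content of 62.0%, against 3 and 42.7% for Il2ra, 5 and 54.3% for Il9r and 1 and 45.7% for Il7r, where the medians over all 32851 windows of the table were 7 and 52.7%. The Il2ra window held none of the 6 patterns. The repeat was picked as the longest pattern with 1 free letter that occurs at least 3 times in the Il4ra window. Its 3 occurrences there were thus fixed by the choice, and its rarity elsewhere is no test. It was held at least once by 89 windows (0.271%), and 3 times or more by 1, that of Il4ra. Among the members the STAT motif was found in the Il7r window, and 8.3% of all windows hold it. The RUNX motif was found in the windows of Il9r, Il7r, Il2rg and Il21r, against 16.8% of all windows. The forkhead motif was found in the Il21r window (3.65% of all windows), where it overlaps the RUNX match, and the AP-1 motif in 1 of the 2 Il15ra windows (7.81%). The ETS motif was in none of the 8 member windows and in 3.89% of all. These matches are descriptions of letters and say nothing of binding.

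Total counts per library ran from 17998216 to 21003496. The column headings pair each genotype with the numbers 2, 6 and 20, which are used here to name libraries, such as WT 20. Libraries with the same number deviated together across genes, and the libraries numbered 20 stood apart from the rest on the first principal component (33.2% of the variance). Results are therefore also given with the number as a block, called the paired fit, where that changes a call. The Treg label was checked on 7 T and Treg markers, which all passed the filter on low counts. They summed to 2835 to 3328 CPM (counts scaled to library size) over all libraries. By the test used below 2 of them, Ikzf2 and Ctla4, were lower in Exon2KO (log2 fold changes -0.66 and -0.85), as were 1.58% of tested genes. Tnfrsf18 was lower as well in the paired fit (-0.73), as were 5.79% of tested genes there. Foxp3 stood at 712 ± 96.5 CPM in WT and 812 ± 121 CPM in Exon2KO (SD, n = 3 each). Counts are per gene, so the loss of the exon could not be checked. Other cells were followed by their markers. The 5 B cell markers summed to 31.1 to 31.9 CPM in WT and 24.8 to 27.6 CPM in Exon2KO, and the 6 myeloid markers to 15.3 to 49.4 CPM over all libraries, with the highest values in WT 20 and Exon2KO 20. The 4 erythroid markers summed to 3.21 to 15.5 CPM and the 4 stromal and endothelial markers, of which Col3a1 was at 0 counts in all libraries, to 164 to 225 CPM. Within each number the stromal and endothelial sum was higher in Exon2KO (190 and 225, 164 and 188, and 184 and 216 CPM in WT and Exon2KO 2, 6 and 20), and the myeloid and erythroid sums were lower; none of the markers in these 3 lists was called in the main test, and their part in the results was not tested.

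In Exon2KO Tregs Il9r fell by 61.3%, Il2ra fell by 30.2% and Il2rb fell by 25.6%, and no member was called higher. All 8 members passed the filter on low counts. Under the edgeR quasi-likelihood test with Benjamini-Hochberg adjustment over 14919 genes, 3 of the 8 had an adjusted p under 0.05, all lower; 1.58% of all tested genes were called lower, 0.757% higher and 2.33% in either direction. In the paired fit 5 of 8 were called, with Il7r added as lower and Il4ra as higher, where 5.79% of tested genes were called lower and 3.93% higher. The count of 3 became 1 or 2 when 1 library was left out (1 without WT 2, WT 6, Exon2KO 2 or Exon2KO 6), and the paired count of 5 became 2 without number 2. Of the 8 log2 fold changes 7 were negative, with a median of -0.34 against 0.0084 over all tested genes. Within each same-numbered pair of libraries 7 members were lower in Exon2KO in all 3 pairs (20.9% of tested genes were) and 1, Il4ra, was higher in all 3 (21.4%). Without regard to number, every Exon2KO library lay below every WT library for 4 members (Il2ra, Il2rb, Il9r and Il21r; 9.32% of tested genes) and above for 1 (Il4ra; 8.35%), against 17.7% of tested genes in either direction. In bulk RNA, fewer cells of a type and less RNA per cell cannot be told apart, so each value is an average over the cells sequenced.

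**Figure D1:**
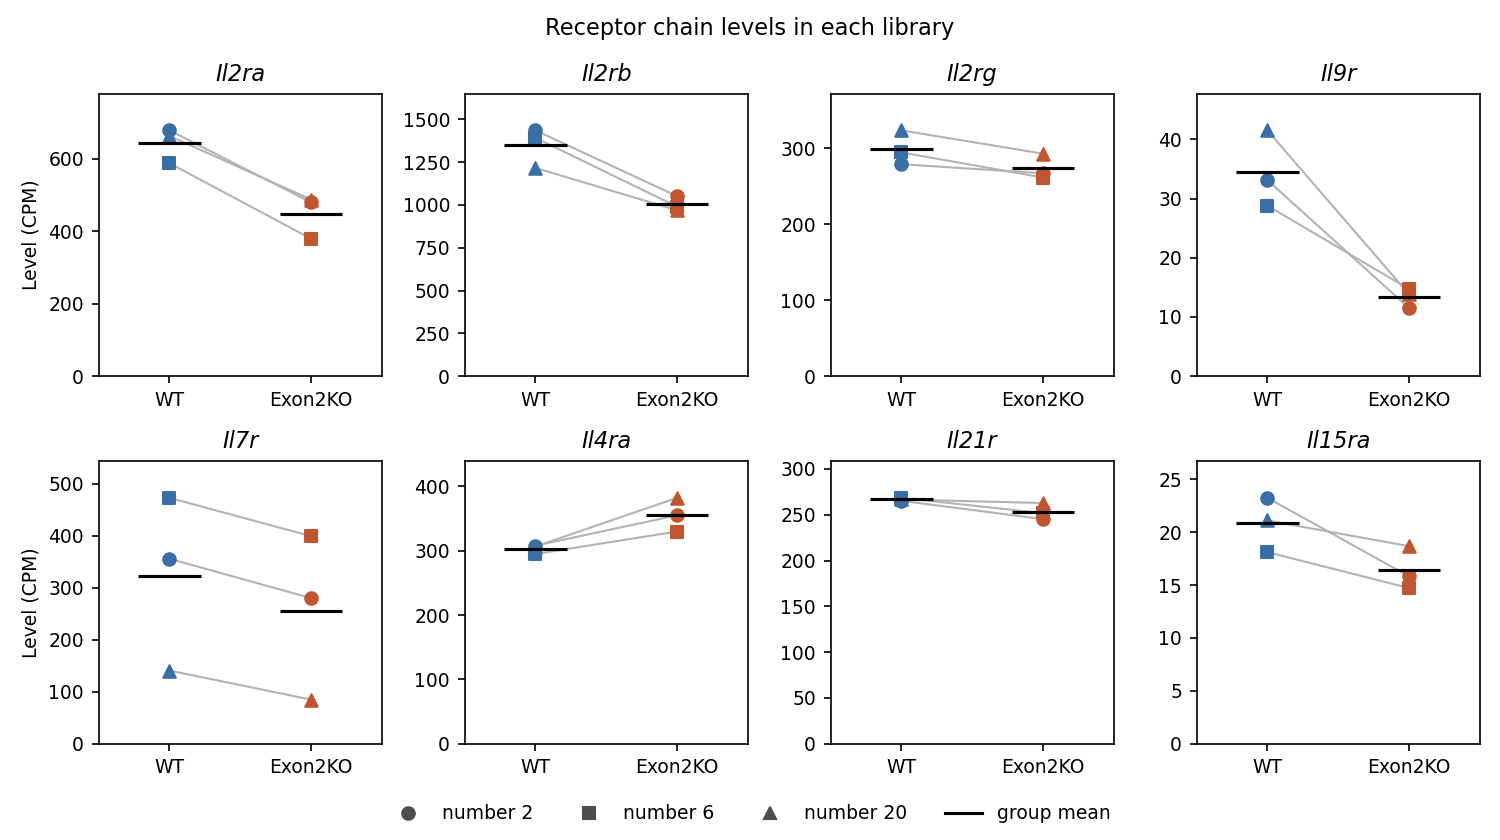
Level of each receptor chain (y axis, CPM, from 0) in WT and Exon2KO libraries (x axis). Symbols give the column number, grey lines join libraries of the same number and black bars are group means of 3 libraries. Il2ra, Il2rb and Il9r separate by genotype with no overlap, whereas Il7r spans 84.8 to 473 CPM and is ordered by number in both genotypes.

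Il2ra (ENSMUSG00000026770, chromosome 2, 11642807 to 11693193, plus strand, GRCm38) encodes the alpha chain of the IL-2 receptor. It stood at 678, 587 and 663 CPM in WT 2, 6 and 20. In Exon2KO 2, 6 and 20 it stood at 479, 379 and 487 CPM. Every Exon2KO library was thus below every WT library, and the lowest library of each genotype was the one numbered 6. Group means of 643 ± 48.5 and 449 ± 60.3 CPM (SD, n = 3 each) corresponded to a log2 fold change of -0.52 (SE 0.11, 95% interval -0.76 to -0.27, edgeR adjusted p = 0.0429). The value lay close to the threshold: limma-voom gave an adjusted p of 0.0525, and leaving out single libraries gave up to 0.172, with the call kept only when Exon2KO 20 was left out. Without both libraries numbered 20 the log2 fold change was -0.56 (edgeR adjusted p = 0.0562), and in the paired fit it was -0.52 (edgeR adjusted p = 7.59e-05). The short transcript Gm37881 lies within Il2ra on the same strand with 881 counts against 62097 for Il2ra over all libraries.

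Il2rb (ENSMUSG00000068227, chromosome 15, 78479256 to 78495271, minus strand), the signalling chain shared by the IL-2 and IL-15 receptors, was the most abundant member. Its levels were 1435, 1392 and 1216 CPM in WT 2, 6 and 20 and 1051, 990 and 969 CPM in the Exon2KO libraries in the same order. The groups did not overlap, and the gap between the lowest WT and the highest Exon2KO library was smaller than the range among the WT libraries. Il2rb differed by -0.43 on the log2 scale (SE 0.09, 95% interval -0.62 to -0.23, edgeR adjusted p = 0.0397). Leaving out single libraries gave adjusted p-values up to 0.151, with the call kept only without WT 20, and the paired fit gave -0.42 (edgeR adjusted p = 0.000751), or -0.41 (adjusted p = 0.118) without the libraries numbered 2. Il2rb is also expressed by CD8 T and natural killer cells. The 6 markers of those cells, all detected, summed to 20.2 to 22.1 CPM in WT and 21.9 to 35.0 CPM in Exon2KO, none was called, and their part in the Il2rb result was not tested.

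Il2rg (ENSMUSG00000031304, X chromosome, 101264378 to 101268255, minus strand), the common gamma chain, showed a smaller difference that did not pass the threshold. WT 2, 6 and 20 had 279, 295 and 324 CPM and Exon2KO 2, 6 and 20 had 267, 262 and 293 CPM, and the ranges overlapped. The gene Gm20489 spans Il2rg on the same strand with 2 counts against 32568 over all libraries. The difference was -0.13 on the log2 scale with a 95% interval from -0.32 to 0.062 (edgeR adjusted p = 0.66; paired fit -0.13, interval -0.25 to 0.00086, adjusted p = 0.236). Without the block the interval for Il2rg overlapped those of Il2ra and Il2rb. In the paired fit it lay above both (Il2ra -0.66 to -0.39, Il2rb -0.57 to -0.28). No test of a difference between genes was made in these fits. The chains were compared within each library by the ratio of their counts, from which depth and scaling cancel.

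The log2 ratio of Il2ra to Il2rg was lower by 0.399 in Exon2KO (difference -0.40). It was 1.10 ± 0.15 in WT and 0.70 ± 0.16 in Exon2KO (SD, n = 3 each), with every Exon2KO library below every WT library. The two-sided exact permutation test gave p = 0.1, the smallest p that 3 against 3 allows, and 0.4 after adjustment over the 8 ratios tested. On the per-length scale (counts per kilobase of gene length, scaled to the library's total, CPKM) Il2ra stood at 0.833 to 1.02 of Il2rg in WT and at 0.606 to 0.75 in Exon2KO. The ratio of Il2rb to Il2rg differed by -0.30 and overlapped between the groups (exact permutation p = 0.3, adjusted 0.6), although it was lower in all 3 pairs of the same number. CPKM levels of Il2rb were 2.09 to 2.86 of those of Il2rg in WT and 1.84 to 2.19 in Exon2KO. The ratio of Il2ra to Il2rb differed by -0.10, with overlapping groups (exact permutation p = 0.5, adjusted 0.686), and the unpaired difference became 0.0054 without Exon2KO 6. Within numbers 2, 6 and 20 it was nevertheless lower in Exon2KO in all 3 pairs, at 0.355 and 0.342, 0.317 and 0.288, and 0.409 and 0.378 of the Il2rb level in WT and Exon2KO. The ratio of Il7r to Il2rg was lower in all 3 pairs as well (difference -0.31, exact permutation p = 0.6, adjusted 0.686). Its unpaired difference turned positive without WT 6 (0.055) and without Exon2KO 20 (0.40).

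**Figure D2:**
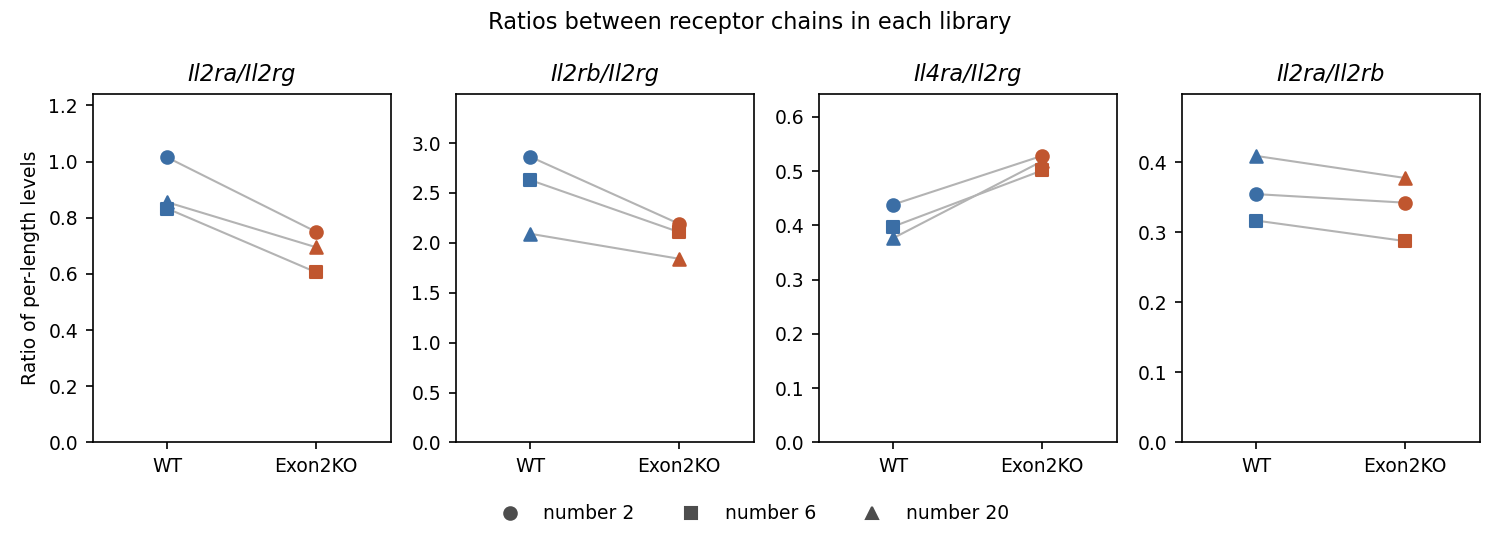
Ratio of per-length (CPKM) levels between pairs of receptor chains (y axis, from 0) in each WT and Exon2KO library (x axis), with symbols for the column number and grey lines joining equal numbers. Il2ra/Il2rg is lower and Il4ra/Il2rg higher in every Exon2KO library than in every WT library, while the other 2 ratios drawn overlap.

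Il9r (ENSMUSG00000020279, chromosome 11, 32187541 to 32200279, minus strand), which binds IL-9 and signals with the gamma chain, fell most among the members. WT 2, 6 and 20 gave 617, 523 and 885 counts for it, or 33.1, 28.8 and 41.5 CPM. Exon2KO 2, 6 and 20 gave 207, 287 and 246 counts, or 11.5, 14.7 and 13.8 CPM. The groups were well apart, with 14.7 CPM in the highest Exon2KO library and 28.8 CPM in the lowest WT library. Its log2 fold change was -1.37 (SE 0.16, 95% interval -1.73 to -1.01, edgeR adjusted p = 0.00312), a level 2.58-fold lower in Exon2KO. Il9r ranked 89 of the 235 genes called lower when ordered by the size of the fall, and it was among the 128 genes (0.858% of those tested) called at 2-fold lower or more. The call held in each of the 6 fits that left out a library (log2 fold change -1.48 to -1.21, highest edgeR adjusted p = 0.0269), without both libraries numbered 20 (-1.24, adjusted p = 0.00331) and in the paired fit (-1.36, adjusted p = 6.35e-06). The gene that encodes its ligand, Il9, had 0 counts in all 6 libraries, which at 3 counts allows a level of up to 0.141 to 0.169 CPM. Il9r is also known from B cells. The summed level of the 5 B cell markers given above was lower in every Exon2KO library than in every WT library, and none of the 5 was called. Ighm and Ighd, which encode heavy chains of B cell immunoglobulins and are not on that marker list, were lower as well. Ighm went from 814 ± 32.5 to 306 ± 63.1 CPM (SD, n = 3 each; log2 fold change -1.41, edgeR adjusted p = 0.00253) and Ighd from 15.9 ± 1.72 to 4.54 ± 1.33 CPM (-1.80, adjusted p = 0.00435). Both were named after their values were seen, other immunoglobulin genes were not tallied, and the part of B cell RNA in the Il9r result was not tested.

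Il7r (ENSMUSG00000003882, chromosome 15, 9505788 to 9530176, minus strand), the IL-7 receptor alpha chain, varied more between libraries of the same genotype than between genotypes. WT 2, 6 and 20 had 356, 473 and 141 CPM. Exon2KO 2, 6 and 20 had 280, 400 and 84.8 CPM. In both genotypes the library numbered 6 was the highest and the library numbered 20 the lowest, and within each number Exon2KO was below WT, by log2 differences of -0.35, -0.24 and -0.73 for numbers 2, 6 and 20. Without the block the log2 fold change was -0.34 with a 95% interval from -2.35 to 1.66 (edgeR adjusted p = 0.941). In the paired fit it was -0.43 (SE 0.08, interval -0.62 to -0.25, edgeR adjusted p = 0.00709). With the paired fit on the libraries of 2 numbers, the adjusted p was 0.135 without number 2, 0.000239 without number 6 and 0.0347 without number 20. Of the 8 members only Il7r was called for a difference between the numbers (edgeR adjusted p = 1.32e-06, against 10.4% of tested genes). The myeloid markers, all 6 detected, summed to 37.6 and 49.4 CPM in the libraries numbered 20 and to 15.3 to 22.5 CPM in the others, and their part in the Il7r values was not tested.

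Among other genes known from resting T cells, Tcf7, S1pr1 and Klf2 rose in the main test, with log2 fold changes of 0.82, 0.61 and 0.54 (0.757% of tested genes were called higher). Ccr7 and Lef1, with 0.35 and 0.46 without the block, rose in the paired fit (3.93% of tested genes were called higher there). A gene of the planned resting T cell list is not reported, so the genes named give no tally of that list. Klf2, a factor that maintains lymphocyte quiescence and recirculation, went from 295 ± 33.8 to 429 ± 9.93 CPM (SD, n = 3 each; log2 fold change 0.54, edgeR adjusted p = 0.0175); its call was lost without WT 2, without Exon2KO 2 and without Exon2KO 6. Foxo1, which drives Il7r transcription in T cells, had 309 ± 32.2 and 316 ± 37.0 CPM (log2 fold change 0.03, edgeR adjusted p = 0.96).

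Il4ra (ENSMUSG00000030748, chromosome 7, 125552120 to 125579474, plus strand), the chain that binds IL-4 and pairs with the gamma chain, was the member with a positive difference. WT libraries 2, 6 and 20 had 308, 295 and 307 CPM, and Exon2KO libraries 2, 6 and 20 had 355, 330 and 382 CPM. Every Exon2KO library was above every WT library. The log2 fold change of 0.23 (SE 0.079, 95% interval 0.055 to 0.41) did not pass the threshold in the main test (edgeR adjusted p = 0.225) and did in the paired fit (0.23, adjusted p = 0.028). That call rested on few libraries, since the paired fit gave an adjusted p of 0.253 without number 2 and 0.188 without number 20. Relative to Il2rg, the log2 ratio of counts rose from 0.021 ± 0.11 to 0.38 ± 0.038 (SD, n = 3 each; exact permutation p = 0.1, adjusted 0.4).

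Il21r (ENSMUSG00000030745, chromosome 7, 125603429 to 125633570, plus strand) lies 23954 bases beyond Il4ra on the same strand and binds IL-21. Its levels were the most even of the members. WT libraries 2, 6 and 20 had 265, 268 and 267 CPM and Exon2KO libraries had 245, 252 and 263 CPM, a range that lay just below that of WT. Its difference was -0.08 on the log2 scale with a 95% interval from -0.23 to 0.079 (edgeR adjusted p = 0.794), and the paired fit gave -0.08 (adjusted p = 0.523). The interval does not reach the value of -0.52 found for Il2ra.

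Il15ra (ENSMUSG00000023206, chromosome 2, 11705290 to 11734317, plus strand), the IL-15 binding chain, lies 12096 bases beyond Il2ra on the same strand. It had 23.3, 18.1 and 21.1 CPM in WT 2, 6 and 20 and 15.8, 14.7 and 18.7 CPM in Exon2KO 2, 6 and 20. The groups overlapped, because WT 6 was below Exon2KO 20. The log2 fold change of -0.34 (SE 0.14, 95% interval -0.67 to -0.022) did not pass the threshold in the main test (edgeR adjusted p = 0.363) or in the paired fit (adjusted p = 0.066). The ratio of Il15ra to its neighbour Il2ra differed by 0.18 between the genotypes (exact permutation p = 0.2, adjusted 0.533).

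**Figure D3:**
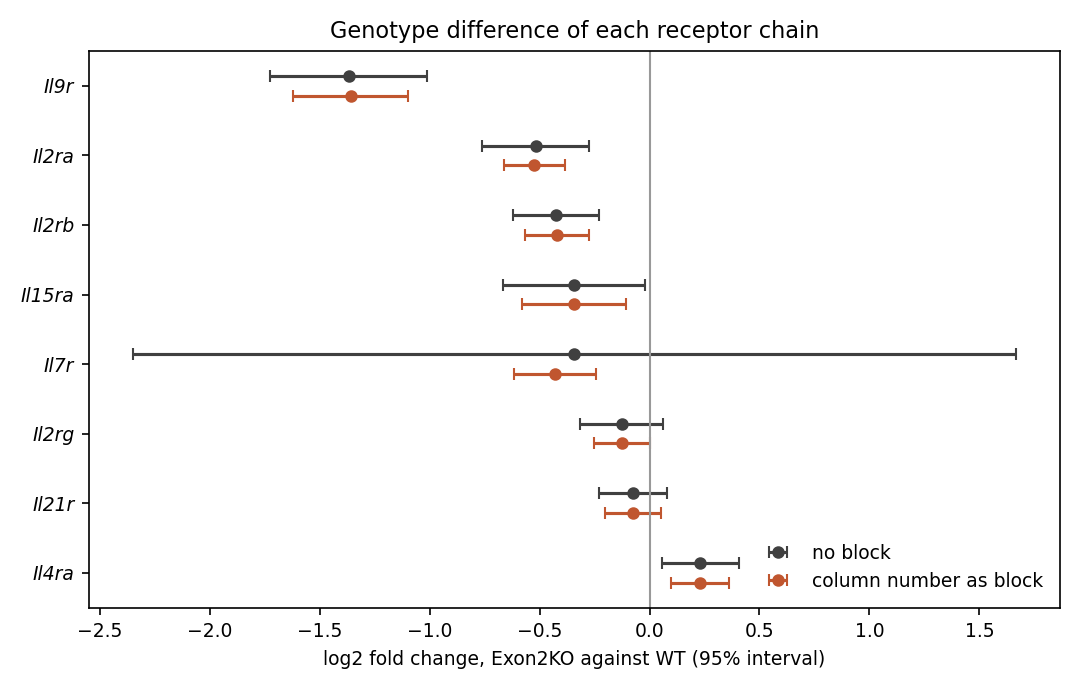
Log2 fold change of each receptor chain, Exon2KO against WT (x axis), with 95% intervals from the edgeR fit without a block (grey) and with the column number as a block (orange). The intervals of Il9r, Il2ra, Il2rb and Il15ra lie below 0 and that of Il4ra above 0 in both fits, before adjustment over all genes; that of Il7r narrows from -2.35 to 1.66 to -0.62 to -0.25.

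Levels of different genes are compared per gene length, on the CPKM scale. In WT the order by median was Il2rb (326 CPKM), Il2rg (124), Il2ra (118), Il21r (81.0), Il7r (77.4), Il4ra (51.8), Il9r (6.79) and Il15ra (4.82). In WT the ranges of Il2rg and Il2ra overlapped, and so did that of Il7r with both Il21r and Il4ra. In Exon2KO the order by median was Il2rb (228 CPKM), Il2rg (110.4), Il2ra (82.8), Il21r (74.7), Il7r (59.3) and Il4ra (58.4), and Il15ra (3.51) stood above Il9r (2.76) without overlap. Il2ra and Il2rg, which overlapped in WT, did not overlap in Exon2KO, where Il2ra overlapped Il21r instead. Il7r, at 18.0 to 84.5 CPKM, overlapped Il2ra, Il21r and Il4ra there. By mean CPKM over all libraries, Il2rb ranked 140 among the 14919 tested genes, Il9r 7610 and Il15ra 8082.

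The pathway around the receptors was followed on 37 genes, a list chosen with earlier results of these data known. Of these, 32 passed the filter on low counts, and the median log2 fold change of those was 0.07. In the main test 1 was called higher (Klf2) and 0 lower; in the paired fit 3 were higher and 5 lower. For this list those counts are near the share of all tested genes called in the main test (2.33%) and above it in the paired fit (9.72%), and the paired count of 8 fell to 1 without the libraries numbered 2, which bears on each paired call given below for genes of this list.

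Among the cytokines, 1 of 6 passed the filter on low counts. For Il21, WT 2, 6 and 20 held 8, 11 and 13 counts, and Exon2KO 2, 6 and 20 held 118, 557 and 25. The groups did not overlap, but the Exon2KO libraries differed among themselves by far more than the WT libraries (log2 fold change 4.46, SE 1.29, edgeR adjusted p = 0.245; paired fit adjusted p = 0.191). For Il2 the WT libraries held 1, 2 and 1 counts and the Exon2KO libraries 8, 7 and 5. Il4 was at 8 counts in each WT library and at 24, 42 and 5 in Exon2KO 2, 6 and 20. Il2 and Il4 did not pass the filter and were not tested, and Il7 and Il15 had at most 7 counts in a library.

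Transcripts of the signalling machinery had no calls in either fit. Jak1, the kinase of the partner chains, had 827 ± 66.0 and 920 ± 87.6 CPM in WT and Exon2KO (SD, n = 3 each), and Jak3, that of the gamma chain, 635 ± 91.2 and 603 ± 70.5 CPM. Among the 6 kinases and adaptors the log2 fold changes ran from -0.075 (Jak3) to 0.51 (Gab2, an adaptor with at most 18 counts in a library). Those of Stat3, Stat5a, Stat5b and Stat6 ran from 0.059 to 0.15, with 0 of 4 called.

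Cish and Socs2, feedback inhibitors that STAT5 is known to induce, were lower in every Exon2KO library than in every WT library, as were 9.32% of tested genes. Cish had 198, 189 and 187 CPM in WT 2, 6 and 20 and 163, 135 and 158 CPM in Exon2KO 2, 6 and 20. Of these 2 fits Cish passed the threshold in the paired one, as 5.79% of tested genes did in this direction (log2 fold change -0.34, edgeR adjusted p = 0.0951; paired fit -0.34, adjusted p = 0.00247). So did Socs2 (log2 fold change -0.34, edgeR adjusted p = 0.0865; paired fit -0.34, adjusted p = 0.00417). The other 2 of the 4 feedback genes, Socs1 and Socs3, had log2 fold changes of 0.016 and 0.19 and were not called in either fit.

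Genes known to be induced by gamma-chain cytokines did not move one way. In the paired fit 2 of the 9 were higher and 1 lower, where 3.93% and 5.79% of tested genes were, and in the main test 0 were called. Bcl2, which protects lymphocytes from apoptosis, had 325, 307 and 201 CPM in WT 2, 6 and 20 and 456, 418 and 367 CPM in Exon2KO 2, 6 and 20, with no overlap (log2 fold change 0.58, edgeR adjusted p = 0.213; paired fit 0.60, adjusted p = 0.000282). Pim1, a survival kinase, went the other way within each number, with 512, 426 and 777 CPM in WT 2, 6 and 20 and 361, 277 and 630 CPM in Exon2KO (log2 fold change -0.44, edgeR adjusted p = 0.803; paired fit -0.48, adjusted p = 0.000355). Both libraries numbered 20 were the highest of their genotype for Pim1. Pim2 rose in the paired fit (0.25, adjusted p = 0.044), and Myc, Mcl1, Ccnd2, Ccnd3, Lta and Gzmb were not called in either fit.

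The 2 further chains that pair with members were lower in the paired fit, as were 5.79% of tested genes. Crlf2, which joins Il7r in the receptor for thymic stromal lymphopoietin, had 83.5 ± 12.5 CPM in WT and 68.2 ± 9.38 CPM in Exon2KO (SD, n = 3 each; log2 fold change -0.29, edgeR adjusted p = 0.437; paired fit -0.29, adjusted p = 0.00719). Il13ra1, which joins Il4ra in the type II IL-4 receptor, was at 39, 45 and 45 counts in the WT libraries and at 10, 29 and 12 in Exon2KO 2, 6 and 20 (log2 fold change -1.28, edgeR adjusted p = 0.197; paired fit -1.36, adjusted p = 0.0265). Among the other regulators of Il7r on the list, Foxo1, Gfi1, Ets1, Gabpa and Runx1 had log2 fold changes from -0.0061 to 0.13 and were not called in either fit.

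**Figure D4:**
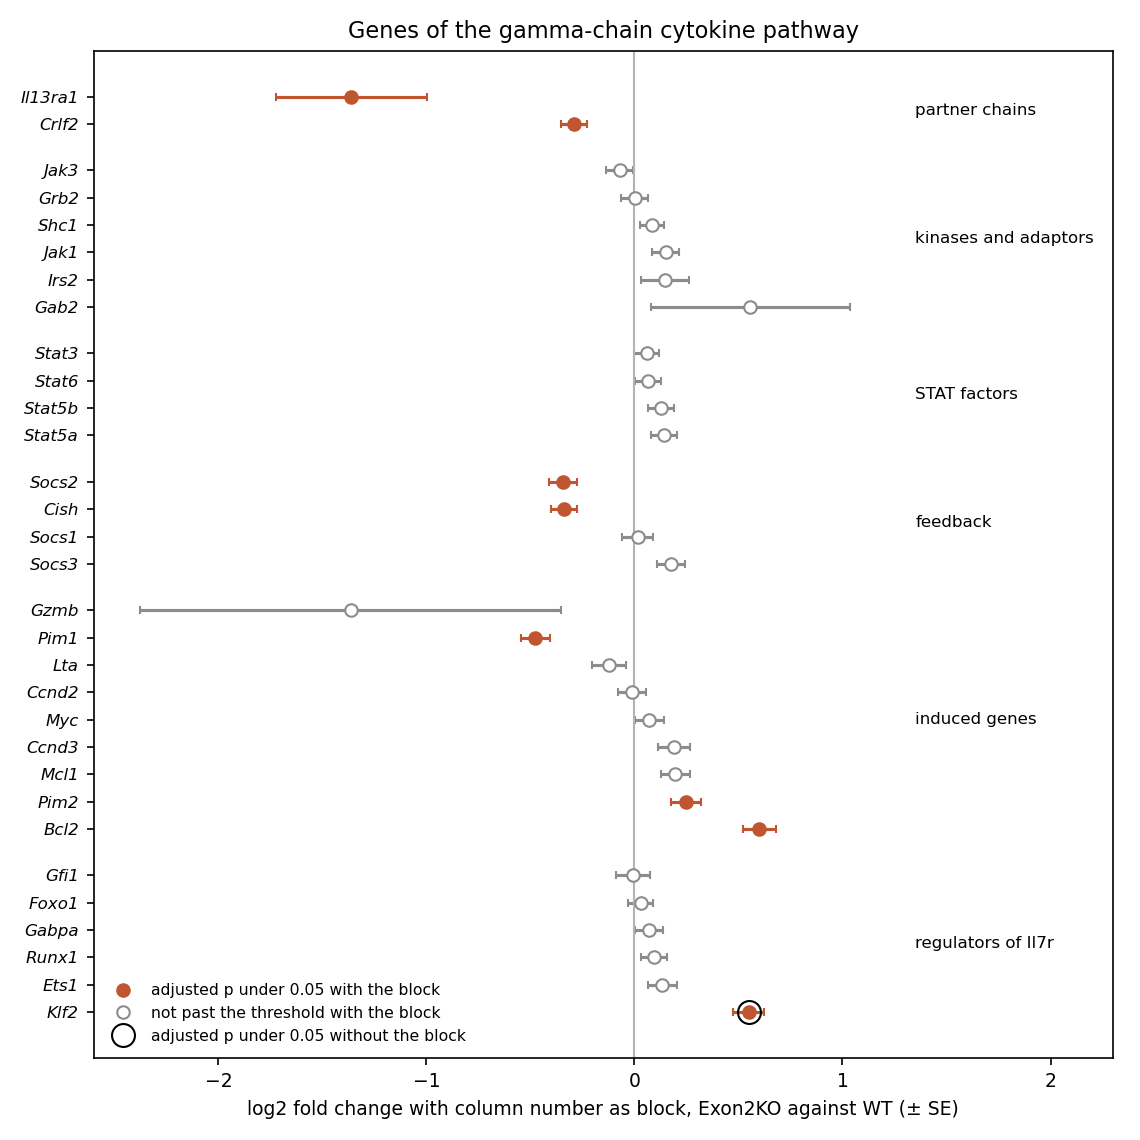
Log2 fold change of the tested pathway genes, Exon2KO against WT, in the fit with the column number as a block (x axis, ± SE), grouped by role. Filled orange points passed an adjusted p of 0.05 in that fit and the black ring marks Klf2, called without the block; Il21 (log2 fold change 4.46 without the block) is not drawn.

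Cytokine receptor chains outside the family were taken as a comparison. Of 32 such genes, among them Il13ra1 and Crlf2 of the pathway list, 21 passed the filter on low counts, and their median log2 fold change was -0.057. In the main test 3 were lower (Il10ra, Ifngr1 and Il3ra) and 1 higher (Ifngr2), against 3 lower and 0 higher among the 8 members; with 1 library left out 0 to 2 of the list were called. In the paired fit 7 of the 21 were lower and 2 higher, against 4 and 1 of the 8. Without the libraries numbered 2 the paired fit called 2 of this list and 2 of the members. Over all tested genes 1.58% were lower and 0.757% higher in the main test, and 5.79% and 3.93% in the paired fit. No test of a difference between these lists was made.

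Among the members, levels of Il2ra and Il15ra were the most alike across the 6 libraries (Pearson r of log2 CPM 0.916), and r was 0.831 for Il2ra and Il2rb. Il4ra had a negative r with each of the other 7, from -0.844 with Il2rb to -0.316 with Il2rg. These values describe 6 libraries that share the genotype difference and the column numbers. Among 9365 protein-coding genes with a mean of at least 5 CPM, those closest to Il2ra were Ncf4 (r = 0.989), Slfn9 (0.989) and Mfsd4b4 (0.988). Those closest to Il2rb were Src (0.995), Dtx3 (0.988) and Fancc (0.988), and those closest to Il7r were Tor4a (0.996), mt-Co2 (0.995) and Mfsd11 (0.994). The genes closest to Il2ra and Il2rb had log2 fold changes from -0.85 to -0.32. The 3 closest to Il7r had values from -0.11 to -0.044. All were picked by r over these same libraries, so this contrast follows largely from the choice.

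The authors' deposited table lists the same 3 members with an adjusted p under 0.05. The authors' deposited table gives log2 fold changes of -0.52 for Il2ra (adjusted p = 0.000442), -0.42 for Il2rb (0.000787) and -1.37 for Il9r (5.33e-12). For Il4ra, Il7r, Il15ra, Il2rg and Il21r the authors' deposited table gives adjusted p-values from 0.181 to 0.999.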

How the data were processed

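The authors deposited 1 table of 55840 genes. Per the file headers it holds whole-number counts per gene for each library and the authors' comparison as group means (a scaled count signal), log2 fold changes and p-values; the last 3 are quoted only where that table is named. The submitters' processing notes name HISAT2 2.0.5, StringTie 1.3.3b, featureCounts 1.5.0-p3 and DESeq2 1.16.1 with build mm10; use of strand is not given in the sources used here. A further 6 columns of per-library values (FPKM) were not used, so levels planned on that scale were computed as counts per kilobase of the deposited gene length, scaled to the library's total in the way of CPM (CPKM). All 8 members have the same position in GENCODE mouse release M21 (GRCm38).

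Columns carry the genotype and the numbers 2, 6 and 20, not the replicate numbers of the titles, so each was assigned to its group only. The titles call the libraries biological replicates and say no more. The edgeR p-values therefore set the genotype difference against the variation between these libraries only. In the paired fit that is the variation left after the number is fitted. Deviations from the group means correlated across genes by 0.271, 0.369 and 0.494 for numbers 2, 6 and 20, each over 0.1, so the numbers were taken to pair the libraries; no label says what they stand for.

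Counts were tested with edgeR 4.0.16 in R 4.3.3, Exon2KO against WT with no covariate (filterByExpr, TMM, robust quasi-likelihood, two-sided, Benjamini-Hochberg over 14919 genes, called at an adjusted p under 0.05). The paired fit adds the column number. SE is the absolute log2 fold change over the square root of F. CPM are on TMM-scaled library sizes. Log2 CPM for correlations used a prior count of 2. The floor is 3 counts (0.141 to 0.169 CPM) and covers counting error only. Chi-square per degree of freedom between libraries of a genotype ran from 6.28 to 17.1, so none was a duplicate. The script was tested on simulated data. Alternatives were RLE and upper-quartile scaling, no filter, a minimum of 10 counts per library, DESeq2 1.42.0, limma-voom (limma 3.58.1), each library left out and both numbered 20 left out; paired fits without each number were added later. Members and lists were chosen with earlier results of these data known. Named genes are the members, pathway genes called in either fit, the pathway's cytokines, and for Il2ra, Il2rb and Il7r the 3 genes most alike; further list genes are named to account for each list, after their values were seen. A gene of the planned resting T cell list is not reported here, and no count is given for that list.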

Additional observations from a re-analysis of the deposited data

How the results depend on the processing

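The log2 fold changes of Il9r, Il2rg, Il21r and Il15ra kept their direction and their side of the threshold in the 17 alternatives run. Those of Il2ra, Il2rb and Il4ra kept their direction. That of Il2rg ran from -0.18 without Exon2KO 20 to -0.068 without WT 20 when 1 library was left out. Il2ra lost its call with limma-voom (-0.53) and without both libraries numbered 20 (-0.56), and leaving out single libraries gave -0.59 to -0.42. For Il2rb leaving out single libraries gave -0.50 to -0.38, and the paired fit without number 2 lost the call (-0.41), within -0.47 to -0.39 for the 3 such fits. Il4ra passed the threshold in the paired fit (0.23) and in that without number 6 (0.26), with 0.17 to 0.27 when 1 library was left out. Il7r passed it in the paired fit (-0.43) and was -0.54 to -0.30 in the paired fits on 2 numbers; it ran from -0.83 to 0.069 when 1 library was left out, and turned positive without WT 6 (0.041) and without Exon2KO 20 (0.069). The replicate block changed no other member's call.

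Called members numbered 5 with the replicate block instead of 3, and 1 to 2 when 1 library was left out. Called pathway genes numbered 8 with the replicate block instead of 1, 3 without a count filter, 4 with DESeq2 and 2 without both libraries numbered 20. They numbered 0 to 1 when 1 library was left out and 1 to 11 in the paired fits on 2 numbers. Called chains of other receptors numbered 9 with the block instead of 4, 2 without both libraries numbered 20, 0 to 2 when 1 library was left out and 2 to 7 in the paired fits on 2 numbers. Over all genes, 348 calls became 1450 with the block, 617 without a filter and 640 with DESeq2, 86 to 314 when 1 library was left out, and 277, 1441 and 900 in the paired fits without numbers 2, 6 and 20. Paired fits on 2 numbers have 1 residual degree of freedom per gene before pooling.

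Of the differences in ratios, that of Il2ra/Il2rb changed sign without Exon2KO 6 (-0.19 to 0.0054 over the libraries left out), and that of Il21r/Il2rg without WT 20 (-0.0078 to 0.095). Il7r/Il2rg (-0.89 to 0.40) became 0.055 without WT 6 and 0.40 without Exon2KO 20. Il7r/Il2ra (-0.49 to 0.81) became -0.45 without WT 20, -0.065 without Exon2KO 2 and -0.49 without Exon2KO 6. With 3 against 3 no ratio can pass 0.05, so their p-values say nothing about stability. The planned ratio on the deposited FPKM was replaced by counts per kilobase, which leaves each difference as it was by construction. The cause of these changes was not tested, beyond the smaller residual variation with the block (biological coefficient of variation 8.56% against 17.3%). Counts of 0 to 8 for Il2, Il7 and Il15 limit what depth can show of the ligands.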

Other observations

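The nearest tested protein-coding neighbours of Il2rb also had negative differences. C1qtnf6, 28074 bases away on one side, was lower in Exon2KO, with a log2 difference of -0.80 ± 0.14 (SE; edgeR adjusted p = 0.0215; paired fit 0.000523), and Kctd17, 39952 bases away on the other, had -0.59 (SE 0.14, edgeR adjusted p = 0.0719; paired fit adjusted p = 0.000927). Beside Il9r, Nsg2, 128338 bases away, had 0.31, opposite in sign to Il9r (edgeR adjusted p = 0.122; paired fit adjusted p = 0.00883), and Snrnp25, 5135 bases away on the other side, had -0.19 (edgeR adjusted p = 0.767; paired fit 0.518). Beside Il7r, Capsl, 39749 bases away, had -1.09 (SE 0.59, edgeR adjusted p = 0.55; paired fit 0.131), and Spef2, 48016 bases away on the other side, had -0.078 (edgeR adjusted p = 0.964; paired fit 0.88). Rbm17, 38653 bases from Il2ra, had 0.0039 (edgeR adjusted p = 0.996, paired fit 0.974). Beside Il2rg, Gm614, 385 bases away, had -0.078 (edgeR adjusted p = 0.955, paired fit 0.841). Med12, 5774 bases away on the other side, had 0.11 (edgeR adjusted p = 0.819, paired fit 0.372). Nsmce1 beside Il4ra, Gtf3c1 beside Il21r and Fbh1 beside Il15ra had -0.038, 0.032 and -0.064 and were called in neither fit. These neighbours were named after their values were seen.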
